A study of Mus musculus with 9 samples.

Results

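Homeostatic lymphoid chemokines are the signals that place lymphocytes and dendritic cells within lymphoid tissue. The 10 genes described here were chosen by name. They are the ligands Cxcl13, Ccl19, Ccl21a, Cxcl12 and Ccl20, their receptors Cxcr5, Ccr7, Cxcr4 and Ccr6, and Ltb, the cytokine that acts upstream of several of the ligands. All 10 were found among the 34638 genes of the deposited table, and all 10 passed the filter on low expression that left 16831 genes. Ccl20 passed only through the IL-33 and IL-33+LM8 mice, since its mean level in PBS mice was under the minimum of 0.5 FPKM. FPKM is the read count divided by gene length and library size, so that it allows levels to be compared between genes.

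Lung RNA came from 9 wild-type C57BL/6 mice in 3 groups of 3. PBS mice received phosphate-buffered saline by the airway, and IL-33 mice received 0.5 µg of recombinant mouse IL-33, an alarmin released by damaged epithelium, into the trachea on days 0, 1, 2 and 3. IL-33+LM8 mice received the same challenge after LM8 at 10 mg/kg into the peritoneum. LM8 is described by the depositors as an inhibitor of MyD88, the adaptor through which the IL-33 receptor signals. The PBS and IL-33 mice were females of 6 to 8 weeks whose lungs were taken on day 4, whereas sex, age and collection day of the IL-33+LM8 mice are not given in the sources used here. No LM8 group without IL-33 was among the 9 mice, so that an effect of LM8 itself and an effect on the response to IL-33 cannot be told apart.

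Total counts per mouse lay between 53877663 and 90607218. The deepest library of each group, which was PBS replicate 3, IL-33 replicate 1 and IL-33+LM8 replicate 3, deviated from its group mean in the same way across genes (Pearson r from 0.65 to 0.67 over all genes with a mean of at least 0.5 FPKM in the 9 mice, where the genes are not independent). Values without these 3 libraries are therefore given wherever they changed whether one of the 10 genes passed, and other genes were not refitted without them. Sftpc, the surfactant gene of the alveolar epithelium, averaged 11030, 4993 and 9203 FPKM in PBS, IL-33 and IL-33+LM8 mice.

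In lymphoid organs CXCL13 from follicular stroma attracts CXCR5-bearing B cells, while CCL19 and CCL21 from the T cell zone and from lymphatic vessels attract CCR7-bearing T cells and mature dendritic cells. CXCL12 retains CXCR4-bearing leukocytes, and CCL20, largely of epithelial origin, attracts cells that bear CCR6. Lymphotoxin β, the product of Ltb, sits on the surface of lymphocytes in a complex with lymphotoxin α and engages the lymphotoxin β receptor on stroma, which signals through the non-canonical NF-κB pathway. In inflamed lung the same genes are known from ectopic lymphoid aggregates.

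Since lymphotoxin signalling and IL-33 signalling both end at NF-κB, the upstream sequences of the genes were searched for the NF-κB consensus motif on both strands. RefSeq start sites (GRCm38.p6) were matched for 8 of the 10 genes, with 9 windows of 250 bases before a start, and Cxcr5 and Ccr7 had no entry. Of all 32851 such windows, 3.9% held the motif, and of the 9 windows of these genes 3 did. They were those of Ccl20 and Ltb and the Ccr6 window printed here. A match is a description of the letters and not a shown binding site. Only this consensus was searched, so that a window without a match may still hold an NF-κB site of other letters. The windows with a match are printed because they belong to genes that differed between groups. That of Cxcl13 is printed because the gene had the largest rise and its window no match to the consensus searched. Each reads 5′ to 3′ on the strand of the gene with the motif in capitals.
Ccl20, chr1:83116516-83116765, plus strand: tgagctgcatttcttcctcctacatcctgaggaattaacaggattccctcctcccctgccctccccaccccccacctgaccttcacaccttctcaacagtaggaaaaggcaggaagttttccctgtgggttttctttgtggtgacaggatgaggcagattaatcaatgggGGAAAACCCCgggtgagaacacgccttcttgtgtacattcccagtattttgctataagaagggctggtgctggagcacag
Ccr6, chr17:8242276-8242525, plus strand: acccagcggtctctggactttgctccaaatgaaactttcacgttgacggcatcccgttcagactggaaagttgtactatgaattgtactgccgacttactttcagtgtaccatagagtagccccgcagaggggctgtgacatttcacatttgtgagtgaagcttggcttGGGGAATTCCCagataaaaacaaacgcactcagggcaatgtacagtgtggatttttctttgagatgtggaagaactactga
Ltb, chr17:35194257-35194506, plus strand: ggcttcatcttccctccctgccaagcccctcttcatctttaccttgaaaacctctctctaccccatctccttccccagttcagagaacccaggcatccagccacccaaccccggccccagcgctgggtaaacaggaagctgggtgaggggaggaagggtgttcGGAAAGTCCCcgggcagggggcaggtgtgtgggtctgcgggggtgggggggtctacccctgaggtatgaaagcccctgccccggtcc
Cxcl13, chr5:95956689-95956938, plus strand: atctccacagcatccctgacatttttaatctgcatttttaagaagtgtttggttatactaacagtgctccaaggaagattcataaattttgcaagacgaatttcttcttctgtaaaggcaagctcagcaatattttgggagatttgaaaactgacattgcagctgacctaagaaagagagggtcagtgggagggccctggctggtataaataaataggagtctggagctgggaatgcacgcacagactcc
The motif began 80 bases before the start in Ccl20 and 87 bases before it in Ltb. In Ccr6 there were 2 matches that overlapped each other, and the window of the other Ccr6 start had none.

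A gene is described as having risen or fallen where edgeR's quasi-likelihood test gave a Benjamini-Hochberg adjusted p under 0.05 over all genes tested, and as called where the difference was also at least 2-fold. Fold changes are on the log2 scale with their standard error (SE). An exact two-sided permutation test of 3 mice against 3 cannot give a p under 0.1, and it is therefore not used for calls. A whole lung was sequenced, so that more cells of a type and more RNA per cell cannot be told apart.

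After IL-33, 6 of the 10 genes were called higher, which were Cxcl13, Ltb, Cxcr5, Ccr7, Ccr6 and Ccl20. Of all genes tested, 10.8% were called higher and 6.24% lower. With no minimum fold, 8 of the 10 rose against a background of 27.4%, and Ccl21a fell, against a background of 27.2%. The median log2 fold change was 1.59 over the 10 genes and -0.005 over all genes tested. The 10 genes were chosen with earlier results of these data known, so that these counts describe the genes and do not test them as a group.

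**Figure D1:**
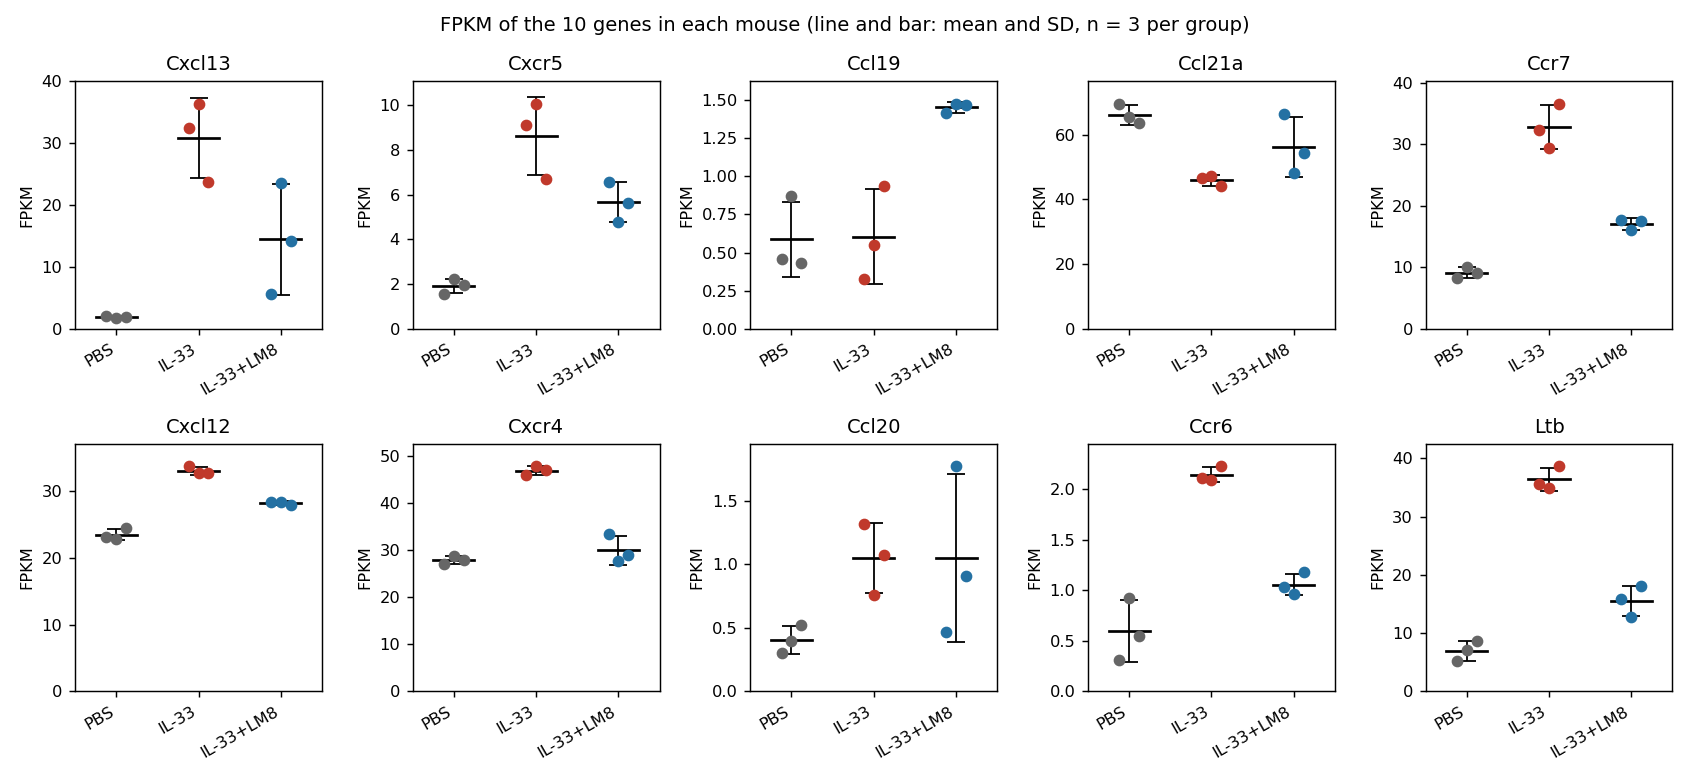
FPKM (vertical axis, from 0) of each of the 10 genes in every mouse, with PBS, IL-33 and IL-33+LM8 mice along the horizontal axis, 1 point per mouse, and the group mean and SD as line and bar (n = 3). IL-33 mice sit above PBS mice for Cxcl13, Cxcr5, Ccr7, Cxcl12, Cxcr4, Ccl20, Ccr6 and Ltb and below them for Ccl21a, while for Ccl19 only the IL-33+LM8 mice stand apart.

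Cxcl13 (ENSMUSG00000023078, chromosome 5, 96104810 to 96108927, plus strand, as in the deposited table) had the largest rise of the 10. Its FPKM was 2.07, 1.82 and 1.92 in PBS mice, 32.4, 36.4 and 23.7 in IL-33 mice, and 5.63, 23.6 and 14.2 in IL-33+LM8 mice. The PBS mice lay within a narrow range far below every challenged mouse, and the IL-33+LM8 mice were spread over a wide range whose highest value was just under the lowest IL-33 value. Between IL-33 and PBS mice the log2 fold change was 3.99 (SE 0.18, adjusted p = 4.12e-06), a 16.0-fold difference in mean FPKM. The highest IL-33+LM8 mouse had 4.19 times the FPKM of the lowest, against 1.14 times in PBS and 1.53 times in IL-33 mice. Between IL-33+LM8 and IL-33 mice the log2 fold change of -1.09 (SE 0.45) did not pass the test (adjusted p = 0.121). This depended on IL-33+LM8 replicate 2, without which it was -1.63 (adjusted p = 0.0276), whereas without replicate 1 it was -0.70 (adjusted p = 0.105). IL-33+LM8 mice remained above PBS mice, by 2.92 on the log2 scale (SE 0.48, adjusted p = 0.00450).

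Cxcr5 (ENSMUSG00000047880, chromosome 9, 44423084 to 44473174, minus strand), the receptor of CXCL13, is carried by mature B cells and follicular helper T cells. Its FPKM was 1.57, 2.22 and 1.94 in PBS mice, 9.10, 10.1 and 6.69 in IL-33 mice, and 6.56, 4.77 and 5.60 in IL-33+LM8 mice. The 3 groups did not overlap, although the highest IL-33+LM8 mouse came close to the lowest IL-33 mouse. Cxcr5 rose after IL-33 with a log2 fold change of 2.17 (SE 0.19, adjusted p = 7.13e-05). It was lower in IL-33+LM8 than in IL-33 mice by a log2 fold change of -0.61 (SE 0.17, adjusted p = 0.0345), a difference that no longer passed when IL-33 replicate 1 or 2 or IL-33+LM8 replicate 2 or 3 was left out (log2 fold changes of -0.57, -0.48, -0.51 and -0.59, adjusted p from 0.0855 to 0.107). It did not pass either without the deepest library of each group (-0.56, adjusted p = 0.192) and with the replicate block (-0.60, adjusted p = 0.0631).

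B cell markers moved with this receptor. All 8 genes of a B cell list were called higher after IL-33, against 10.8% of all genes tested. Their log2 fold changes ran from 1.54 for Cd22 to 2.47 for Ms4a1, a range that holds the value of Cxcr5. The summed FPKM of the list was 41.9 to 52.5 in PBS mice, 144 to 186 in IL-33 mice and 93.0 to 108 in IL-33+LM8 mice, and no marker was at 0 in any group. All 8 fell in IL-33+LM8 mice compared with IL-33 mice, against 13.9% of all genes tested, with a median of -0.86. Cd79a, a chain of the B cell receptor complex, went from 12.5 ± 1.51 FPKM in PBS mice to 47.0 ± 8.16 in IL-33 and 25.9 ± 2.89 in IL-33+LM8 mice (SD, n = 3). The part of B cell content in the Cxcr5 values was not tested. Of a list of follicular dendritic cell genes, Cr2 (log2 fold change 1.52) and Fcer2a (1.90), complement and IgE receptors that B cells share, were called higher, and so was Sox9 (4.16), a transcription factor known from cartilage and epithelium. Sox9 averaged 0.131 FPKM in PBS mice and passed the filter on low expression only through the IL-33 mice, so that its value is a description.

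Ccl21a (ENSMUSG00000094686, chromosome 4, 42772860 to 42773993, minus strand) was the most abundant of the 10 in PBS lung and the only member of the set that fell after IL-33. Its FPKM was 69.6, 65.3 and 63.6 in PBS mice, 46.5, 47.1 and 44.0 in IL-33 mice, and 66.3, 48.2 and 54.4 in IL-33+LM8 mice. All IL-33 mice lay below the other 6 mice, while the IL-33+LM8 mice reached from just above the IL-33 range into the PBS range. The log2 fold change was -0.53 (SE 0.06, adjusted p = 3.42e-04) after IL-33, short of 2-fold. The values of 0.29 (SE 0.11, adjusted p = 0.0951) between IL-33+LM8 and IL-33 mice and -0.22 (SE 0.12, adjusted p = 0.195) between IL-33+LM8 and PBS mice did not pass. Without IL-33+LM8 replicate 2 the former was 0.39 (adjusted p = 0.0287), and without IL-33+LM8 replicate 1 the latter was -0.35 (adjusted p = 0.0267).

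Mice of this strain carry several near-identical copies of Ccl21, and the deposited table holds 6 such rows, including Ccl21b, Ccl21d, Gm10591, Gm13304 and Gm21953. The coding sequences of the copies were compared with that of Ccl21a because reads may have been divided among them. In GENCODE M21 transcripts the longest open reading frame had 402 bases in Ccl21a, Ccl21b, Ccl21d, Gm10591 and Gm13304, and each copy differed from Ccl21a at the same 2 positions, T84A and C194T, counted from the A of the start codon. Bases 61 to 220 are printed with the differing positions in capitals, and those of Ccl21d, Gm10591 and Gm13304 are the same as those of Ccl21b.
Ccl21a: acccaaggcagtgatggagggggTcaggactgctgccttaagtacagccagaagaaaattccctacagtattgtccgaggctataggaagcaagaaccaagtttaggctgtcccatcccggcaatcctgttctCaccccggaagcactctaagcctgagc
Ccl21b: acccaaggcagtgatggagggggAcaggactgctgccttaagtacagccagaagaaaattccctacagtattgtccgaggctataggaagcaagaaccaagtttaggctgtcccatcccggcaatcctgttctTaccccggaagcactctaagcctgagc
Of the 253 stretches of 150 bases in the Ccl21a reading frame, 59 also occur whole in a copy, so that a read from them cannot be placed by its letters. Ccl21a held from 56.7% to 75.0% of the counts on the 6 rows. Single copies varied within groups. Ccl21b counted 428, 0 and 513 reads in the 3 IL-33+LM8 mice, and Gm10591 counted 427, 1634 and 580 in the 3 PBS mice.

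When the 6 rows were summed, counts were 6531, 6262 and 7371 in PBS mice, 4661, 4212 and 3803 in IL-33 mice, and 5559, 3617 and 6557 in IL-33+LM8 mice. The sum fell after IL-33 by as much as Ccl21a alone, with a log2 fold change of -0.53 (SE 0.04, adjusted p = 5.80e-05). Between IL-33+LM8 and IL-33 mice the sum gave 0.08 (SE 0.15, adjusted p = 0.742), and between IL-33+LM8 and PBS mice -0.43 (SE 0.15, adjusted p = 0.0639), where Ccl21a alone gave -0.22.

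**Figure D2:**
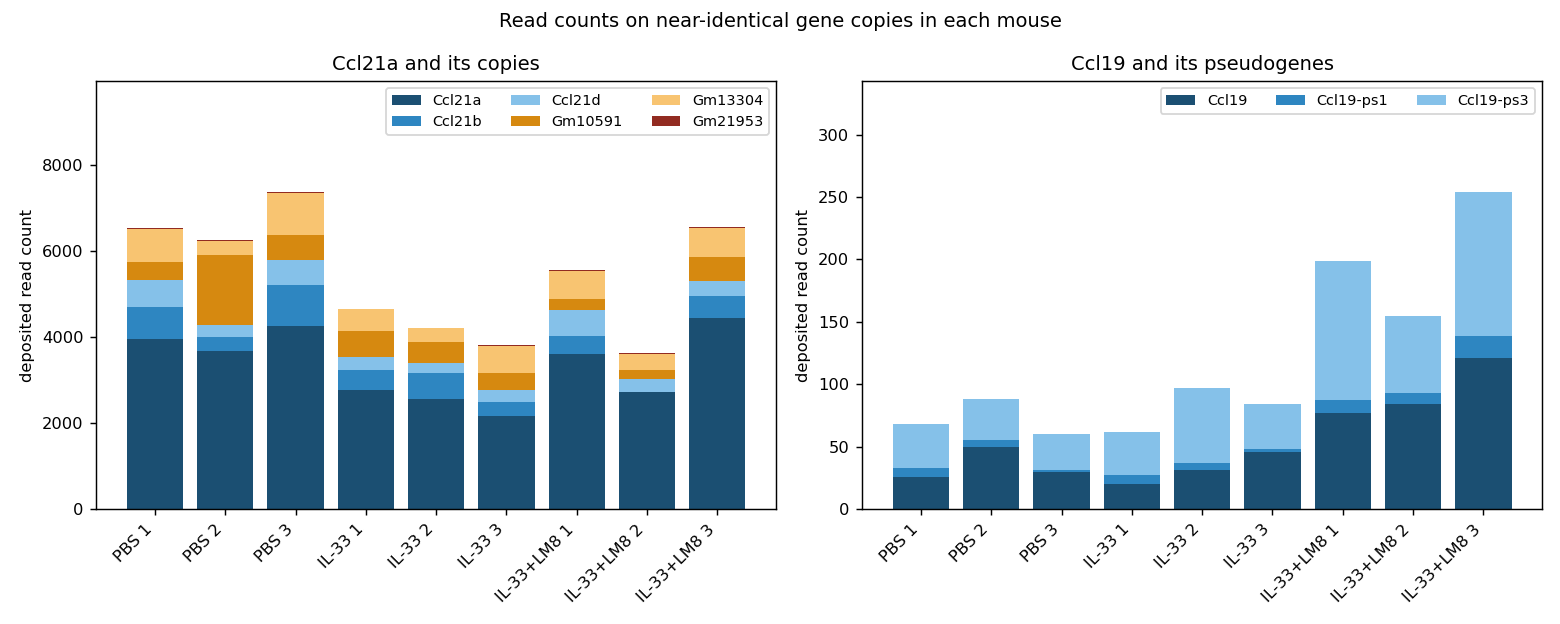
Deposited read counts (vertical axis, not scaled for depth) in each of the 9 mice, stacked by row of the table, for Ccl21a and its 5 copies on the left and for Ccl19 and 2 pseudogenes on the right. IL-33 mice sum to 3803 to 4661 Ccl21 counts against 6262 to 7371 in PBS mice, and Ccl21b is at 0 in IL-33+LM8 replicate 2.

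Ccl19 (ENSMUSG00000071005, chromosome 4, 42754525 to 42756577, minus strand), the other ligand of CCR7, was expressed at low level. Its FPKM was 0.457, 0.871 and 0.430 in PBS mice, 0.326, 0.547 and 0.939 in IL-33 mice, and 1.41, 1.48 and 1.47 in IL-33+LM8 mice, from counts of 20 to 121. PBS and IL-33 mice overlapped over their whole range, and the IL-33+LM8 mice lay close together above both. The log2 fold change of 0.03 (SE 0.47, adjusted p = 0.958) after IL-33 did not pass. Ccl19 was called higher in IL-33+LM8 mice, by 1.25 (SE 0.38, adjusted p = 0.0492) against IL-33 and by 1.30 (SE 0.33, adjusted p = 0.0252) against PBS mice.

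The first of these calls ended when IL-33 replicate 1 or 2 or any IL-33+LM8 replicate was left out (log2 fold changes of 0.96, 1.20, 1.28, 1.23 and 1.26, adjusted p from 0.0907 to 0.127), and the second without PBS replicate 1 or 3 or IL-33+LM8 replicate 2 or 3 (1.15, 1.13, 1.29 and 1.30, adjusted p from 0.0685 to 0.0780). Without the deepest library of each group the values were 0.96 (adjusted p = 0.195) and 1.12 (adjusted p = 0.147), and with the replicate block the first was 1.36 (adjusted p = 0.0623). The table holds 2 pseudogenes, Ccl19-ps1 and Ccl19-ps3, and the latter counted 29 to 115 reads, more than Ccl19 itself in some mice. Summed over the 3 rows, counts were 68, 88 and 60 in PBS mice, 62, 97 and 84 in IL-33 mice and 199, 155 and 254 in IL-33+LM8 mice. On this sum, chosen after the data had been seen, the differences were 1.07 (SE 0.28, adjusted p = 0.0263) against IL-33 and 1.39 (SE 0.28, adjusted p = 0.00938) against PBS mice.

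Ccr7 (ENSMUSG00000037944, chromosome 11, 99035022 to 99045903, minus strand), the receptor of both ligands, guides naive T cells and maturing dendritic cells. Its FPKM was 8.32, 10.0 and 9.10 in PBS mice, 32.3, 29.4 and 36.6 in IL-33 mice, and 17.6, 16.0 and 17.6 in IL-33+LM8 mice. The groups were apart from each other, with the IL-33+LM8 mice in the middle. Ccr7 rose after IL-33 with a log2 fold change of 1.84 (SE 0.10, adjusted p = 1.05e-05) while its more abundant ligand gene Ccl21a fell. It fell in IL-33+LM8 mice compared with IL-33 mice with a log2 fold change of -0.94 (SE 0.09, adjusted p = 4.83e-04), which was just under 2-fold and passed it without IL-33 replicate 2 (-1.01). It was still above PBS mice by 0.91 (SE 0.09, adjusted p = 5.50e-04).

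Genes of mature migratory dendritic cells, a type defined partly by CCR7, were called higher after IL-33 for 6 of 7 markers, against 10.8% of all genes tested. Il4i1 averaged 0.0961 FPKM in PBS mice and passed the filter on low expression only through the challenged mice, so that the count describes the list. Their summed FPKM was 36.8 to 41.6 in PBS mice, 277 to 304 in IL-33 mice and 190 to 301 in IL-33+LM8 mice, most of it in challenged mice from the chemokine genes Ccl17 and Ccl22. From IL-33 to IL-33+LM8 mice 5 of the 7 fell, against 13.9% of all genes tested. Of these Fscn1, Cacnb3 and Il4i1 were called lower, and the median log2 fold change of the list was -0.94. The actin-bundling gene Fscn1 went from 5.47 ± 1.43 to 25.9 ± 2.72 and then 11.8 ± 2.66 FPKM across PBS, IL-33 and IL-33+LM8 mice (SD, n = 3). Ccl17 stood at 7.70 ± 2.66, 133 ± 12.1 and 149 ± 43.8 FPKM in the same order, and its log2 fold change of 0.16 between IL-33+LM8 and IL-33 mice did not pass (adjusted p = 0.603).

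Of 8 T cell markers 5 rose after IL-33, against 27.4% of all genes tested. They were Cd3e, Cd3g, Cd4, Lck and Trbc2, the last by at least 2-fold, and the median log2 fold change of the list was 0.47. Of 4 tested genes of naive and central memory T cells 1 rose, near the share of all genes tested. This was Il7r (2.34, adjusted p = 6.22e-06), and Tcf7 (-0.16, adjusted p = 0.310) and Klf2 (-0.27, adjusted p = 0.700) did not pass. Of 6 genes listed for lymphatic endothelium, a source of CCL21, Prox1 and Pdpn rose and Lyve1, Flt4 and Mmrn1 fell after IL-33. Of all genes tested 27.4% rose and 27.2% fell. The summed FPKM of the 6 was 171 to 196, 144 to 153 and 207 to 230 in PBS, IL-33 and IL-33+LM8 mice. Most of this sum came from Lyve1 and Pdpn (123 and 47.4 FPKM on average in PBS mice), while Prox1 averaged 0.641 FPKM there. In whole lung the reads of Lyve1 and Pdpn cannot be assigned to lymphatic vessels, so that the sum is not a measure of them. From IL-33 to IL-33+LM8 mice Lyve1 and Flt4 rose, whereas Prox1, under 1 FPKM in all groups, fell (-0.88, SE 0.15, adjusted p = 0.00422). Lyve1, which encodes a hyaluronan receptor, fell after IL-33 with a log2 fold change of -0.64 (SE 0.08, adjusted p = 4.52e-04). The 5 blood endothelial markers all fell after IL-33, against 27.2% of all genes tested. Their log2 fold changes ran from -0.59 for Pecam1 to -1.24 for Kdr, with a median of -0.92. All 5 rose in IL-33+LM8 mice compared with IL-33 mice, against 12.6% of all genes tested, with a median of 0.61. The part of these cell types in the Ccr7 and Ccl21a values was not tested.

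**Figure D3:**
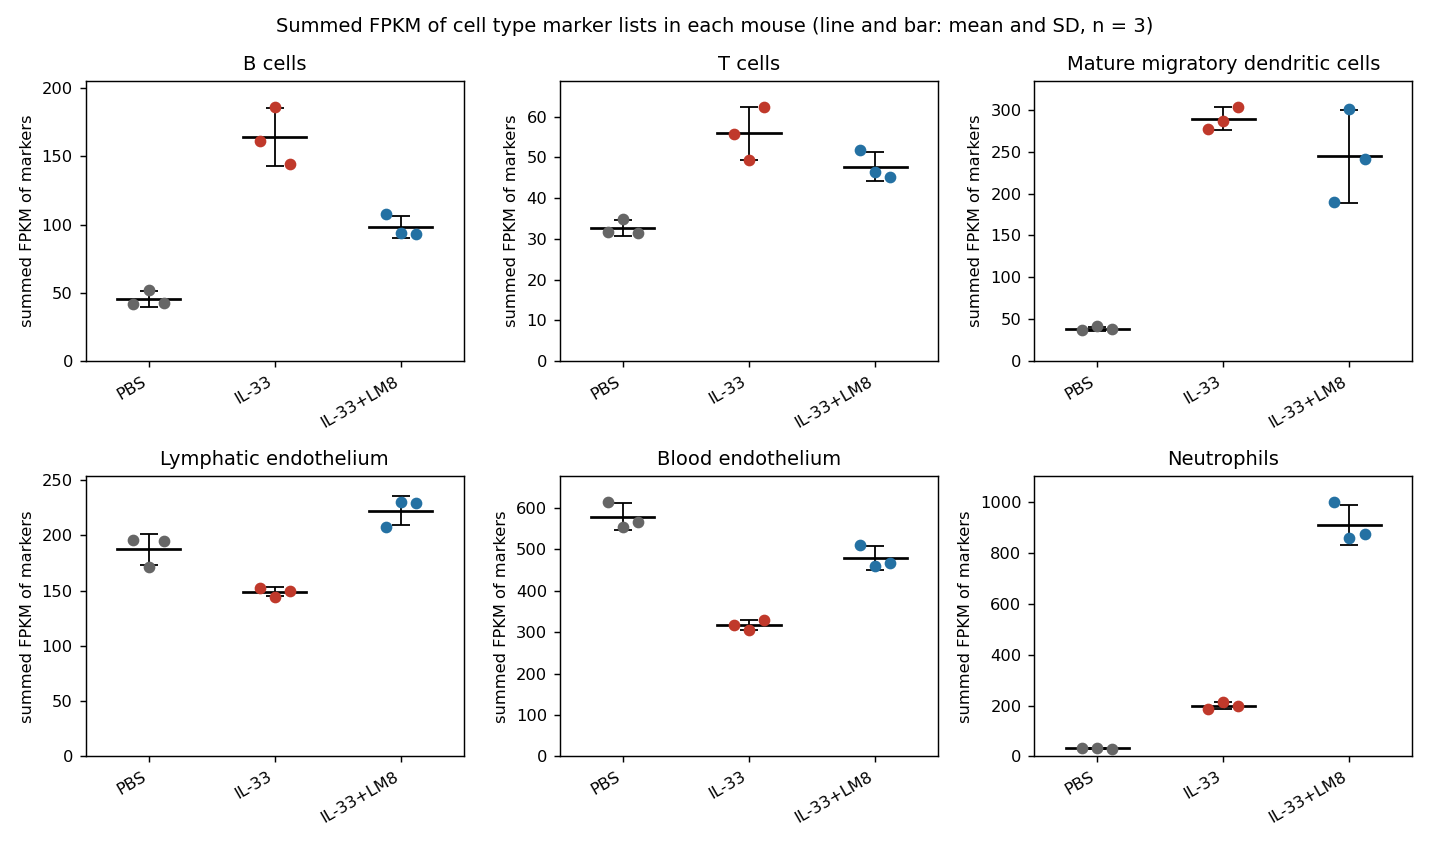
Summed FPKM (vertical axes, from 0) of 6 lists of cell type markers in each mouse, with the mean and SD as line and bar (n = 3 per group). Most of the lymphatic sum comes from Lyve1 and Pdpn, whose reads cannot be assigned to lymphatic vessels in whole lung. B cell markers lie at 41.9 to 52.5, 144 to 186 and 93.0 to 108 in PBS, IL-33 and IL-33+LM8 mice, and neutrophil markers at 27.4 to 34.4, 187 to 213 and 859 to 1001.

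Cxcl12 (ENSMUSG00000061353, chromosome 6, 117145496 to 117158328, plus strand), the retention signal made by stroma and endothelium, varied little within groups, the highest mouse having from 1.02 to 1.07 times the FPKM of the lowest. Its FPKM was 23.1, 22.8 and 24.4 in PBS mice, 33.7, 32.7 and 32.7 in IL-33 mice, and 28.4, 28.4 and 27.8 in IL-33+LM8 mice. The groups did not overlap, and the differences were small. Cxcl12 rose after IL-33 with a log2 fold change of 0.49 (SE 0.05, adjusted p = 9.87e-05). It fell by 0.23 on the log2 scale in IL-33+LM8 mice compared with IL-33 mice (SE 0.05, adjusted p = 0.00970), which no longer passed without IL-33+LM8 replicate 3 (-0.21, adjusted p = 0.0563), without the deepest libraries (-0.20, adjusted p = 0.194) and with the replicate block (adjusted p = 0.0504). Against PBS mice the log2 fold change was 0.28 (SE 0.05, adjusted p = 0.00868), and without the deepest libraries it was 0.32 (adjusted p = 0.0822).

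Cxcr4 (ENSMUSG00000045382, chromosome 1, 128515936 to 128520030, minus strand), its receptor on most leukocytes, stood at 27.0, 28.8 and 28.0 FPKM in PBS mice, 46.0, 47.9 and 47.0 in IL-33 mice, and 33.5, 27.6 and 28.9 in IL-33+LM8 mice. The IL-33 mice lay above all others, while PBS and IL-33+LM8 mice overlapped. The log2 fold change was 0.75 (SE 0.05, adjusted p = 1.72e-05) after IL-33 and -0.65 (SE 0.08, adjusted p = 0.00105) in IL-33+LM8 mice compared with IL-33 mice. Against PBS mice it was 0.12 (SE 0.08, adjusted p = 0.316). Neutrophils and eosinophils also carry CXCR4, and their markers moved in opposite ways with LM8. The 7 neutrophil markers all rose between IL-33 and IL-33+LM8 mice, against 12.6% of all genes tested, with a median log2 fold change of 1.86. The 5 tested eosinophil markers all fell, against 13.9%, with a median of -2.04. Ly6g, Ccr3, Prg2 and Il5ra of these lists averaged under 0.5 FPKM in PBS mice and passed the filter on low expression only through the challenged mice. The part of neutrophils and eosinophils in the Cxcr4 values was not tested.

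Ccl20 (ENSMUSG00000026166, chromosome 1, 83094487 to 83096888, plus strand) was the least abundant of the 10 in PBS mice. Its FPKM was 0.299, 0.394 and 0.525 in PBS mice, 1.32, 0.761 and 1.07 in IL-33 mice, and 0.469, 1.77 and 0.911 in IL-33+LM8 mice, from counts of 29 to 165. IL-33 mice lay above PBS mice, and the IL-33+LM8 mice reached from within the PBS range to above the IL-33 range. Ccl20 was called higher after IL-33 with a log2 fold change of 1.34 (SE 0.32, adjusted p = 0.00928). For IL-33+LM8 mice neither the log2 fold change near 0 (SE 0.48, adjusted p = 0.999) against IL-33 mice nor that of 1.36 (SE 0.50, adjusted p = 0.0795) against PBS mice passed. The latter was called at about the same fold change with DESeq2 (adjusted p = 0.0405) and in the fit of all 9 mice (adjusted p = 0.0486), and without IL-33+LM8 replicate 1 (1.71, adjusted p = 0.0239).

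Ccr6 (ENSMUSG00000040899, chromosome 17, 8454875 to 8475973, plus strand), the receptor of CCL20, is found on B cells, type 17 lymphocytes and some dendritic cells. Its FPKM was 0.313, 0.921 and 0.547 in PBS mice, 2.11, 2.09 and 2.22 in IL-33 mice, and 1.03, 0.966 and 1.18 in IL-33+LM8 mice. The groups did not overlap, although the highest PBS mouse came within a few hundredths of the lowest IL-33+LM8 mouse. Ccr6 was called higher after IL-33 (log2 fold change 1.83, SE 0.36, adjusted p = 0.00386). It was called lower in IL-33+LM8 than in IL-33 mice (-1.01, SE 0.17, adjusted p = 0.00425), at the edge of the 2-fold minimum, and without IL-33 replicate 3 or IL-33+LM8 replicate 1 or 2 it was -0.97, -0.99 and -0.95. Against PBS mice the value of 0.84 (SE 0.37) did not pass (adjusted p = 0.128), and without PBS replicate 2 it was 1.29 (adjusted p = 0.0345). A row on the other strand, ENSMUSG00000120679, overlaps Ccr6 and counted 39 to 212 reads, and as the strand setting of the counting is not given in the sources used here, its reads cannot be told apart from those of Ccr6. Il17a, a cytokine gene of type 17 lymphocytes, was listed at 0 in all PBS mice.

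Ltb (ENSMUSG00000024399, chromosome 17, 35413415 to 35415281, plus strand) encodes lymphotoxin β. Its FPKM was 5.24, 7.13 and 8.61 in PBS mice, 35.6, 34.9 and 38.6 in IL-33 mice, and 15.8, 12.8 and 18.0 in IL-33+LM8 mice. The groups were well apart. Ltb was called in all 3 comparisons, higher after IL-33 (log2 fold change 2.38, SE 0.17, adjusted p = 2.69e-05), lower in IL-33+LM8 than in IL-33 mice (-1.23, SE 0.12, adjusted p = 4.96e-04) and higher in IL-33+LM8 than in PBS mice (1.17, SE 0.20, adjusted p = 0.00490).

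Around Ltb, 8 of 13 other genes of a lymphotoxin pathway list were called higher after IL-33, against 10.8% of all genes tested. Including smaller changes, 10 of 13 rose, against 27.4%. The median log2 fold change of the 13 was 1.24. Among the 8 were Tnfsf11 with its receptor gene Tnfrsf11a and Tnfsf13b with its receptor gene Tnfrsf13c, which are pairs other than lymphotoxin and its receptor. Lta, Tnf and Tnfsf11 averaged under 0.5 FPKM in PBS mice and passed the filter on low expression only through the challenged mice, so that these counts describe the list and do not test it. Among the ligands, Lta, the partner of Ltb, went from 0.332 ± 0.224 to 1.18 ± 0.131 FPKM (SD, n = 3) with a log2 fold change of 1.82 (SE 0.46, adjusted p = 0.0122). Tnfsf14, encoding LIGHT, another ligand of the lymphotoxin β receptor, rose by 2.43 (SE 0.23, adjusted p = 1.09e-04), and Tnfsf11, encoding RANKL, by 4.35 (SE 0.34, adjusted p = 4.65e-05) from under 0.1 FPKM. Tnf at 1.24 (SE 0.48) did not pass (adjusted p = 0.0640). Tnfsf13b, encoding the B cell survival factor BAFF, rose by 1.05 (SE 0.06) and its receptor Tnfrsf13c, a B cell gene, by 1.89 (SE 0.26).

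The receptor itself, Ltbr, stood at 32.8 ± 1.01, 34.1 ± 0.409 and 35.3 ± 1.30 FPKM in PBS, IL-33 and IL-33+LM8 mice (SD, n = 3) and passed in no comparison (adjusted p = 0.287, 0.535 and 0.133 for IL-33 against PBS, IL-33+LM8 against IL-33 and IL-33+LM8 against PBS). Tnfrsf14, the receptor of LIGHT that B and T cells share, did not pass after IL-33 either (-0.07, SE 0.12, adjusted p = 0.637), and the RANK gene Tnfrsf11a rose by 1.62 (SE 0.12). Downstream, the non-canonical NF-κB subunit genes Nfkb2 (1.36, SE 0.07) and Relb (1.14, SE 0.10) were called higher. Map3k14, encoding the kinase NIK (0.81, SE 0.09), and Traf3, encoding its inhibitor (0.55, SE 0.04), rose by less than 2-fold.

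From IL-33 to IL-33+LM8 mice 7 of the 13 fell and 1 rose, where 13.9% of all genes tested fell and 12.6% rose. Lta (-1.30, SE 0.32, adjusted p = 0.0223) and Tnfrsf13c (-1.25, SE 0.23, adjusted p = 0.00673) were called lower, as Ltb was, and Tnf was called higher (1.34, SE 0.21, adjusted p = 0.00317). Nfkb2 (-0.23, SE 0.05) and Relb (-0.34, SE 0.08) fell by less than 2-fold, and for Tnfsf14 the value of -0.15 (SE 0.17) did not pass (adjusted p = 0.589).

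**Figure D4:**
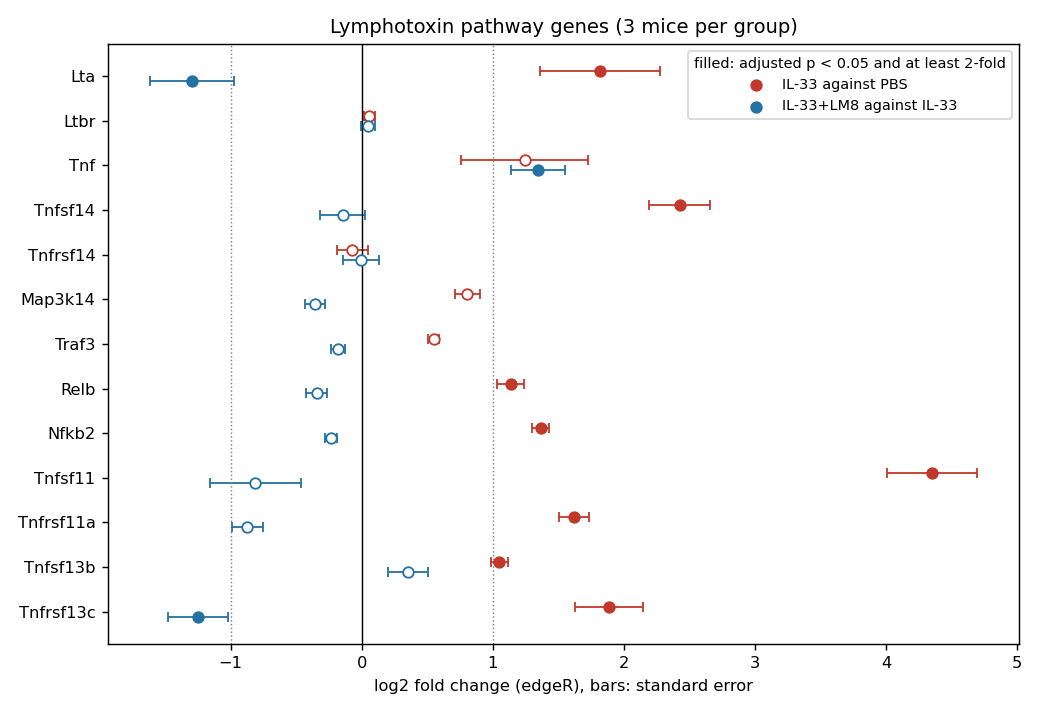
Log2 fold change (horizontal axis, bars are the standard error) of the 13 genes of the lymphotoxin pathway list in IL-33 against PBS mice and in IL-33+LM8 mice compared with IL-33 mice, fitted with 3 mice per group. The list includes the pairs Tnfsf11 and Tnfrsf11a and Tnfsf13b and Tnfrsf13c. Filled points passed an adjusted p of 0.05 and 2-fold (dotted lines). In the first comparison 8 points are filled, all to the right, and in the second Lta and Tnfrsf13c lie to the left and Tnf to the right.

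Over the 10 genes, IL-33+LM8 against IL-33 mice gave 2 called lower, Ltb and Ccr6, and 1 called higher, Ccl19. Of all genes tested 3.93% were called lower and 1.46% higher. With no minimum fold 6 fell, against 13.9% of all genes tested, and Ccl19 rose, against 12.6%. Without the deepest library of each group 4 fell, which were Ccr7, Cxcr4, Ccr6 and Ltb, and Ltb and Ccr6 were still called. The median log2 fold change was -0.63 over the 10 genes and -0.006 over all genes tested. Against PBS mice, 4 of the 10 were called higher in IL-33+LM8 mice, which were Cxcl13, Cxcr5, Ltb and Ccl19, where 5.87% of all genes tested were. With no minimum fold 6 were higher, against 16.3% of all genes tested, and the median was 1.04. Each comparison shares a group of mice with the others, so that the 3 sets of values are not independent of each other.

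**Figure D5:**
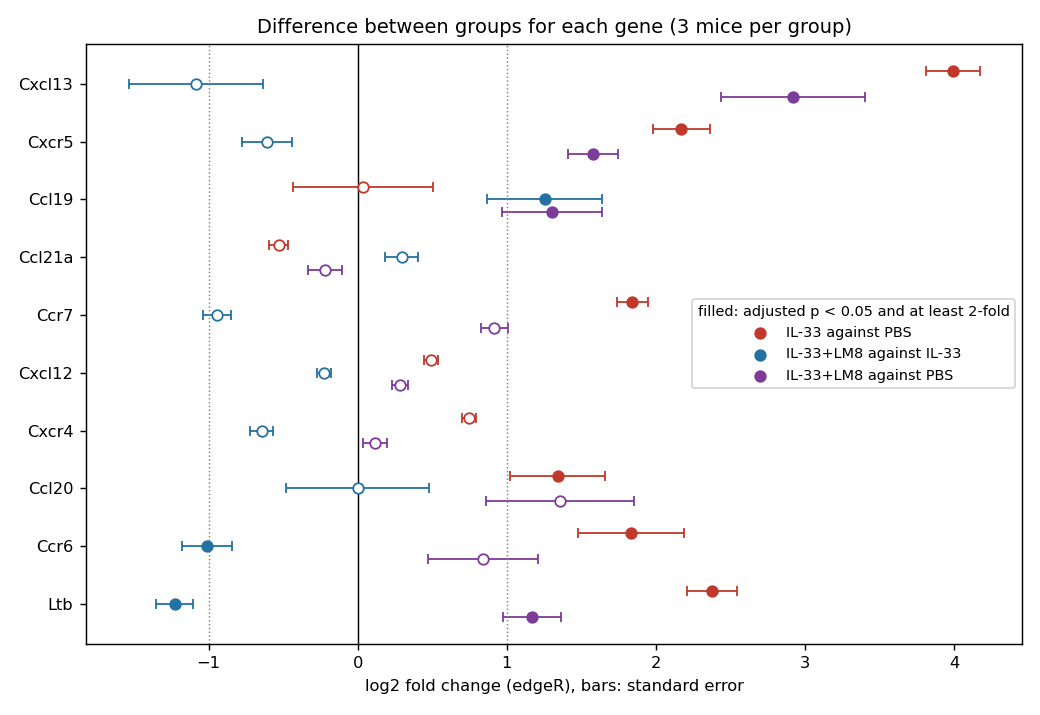
Log2 fold change (horizontal axis, bars are the standard error) of each of the 10 genes in the 3 comparisons, fitted with 3 mice per group; filled points passed an adjusted p of 0.05 and 2-fold (dotted lines). IL-33 against PBS has 6 filled points, all to the right, IL-33+LM8 against IL-33 has Ltb and Ccr6 filled on the left and Ccl19 on the right, and IL-33+LM8 against PBS has 4 filled on the right.

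The order of the levels changed between groups. In PBS mice Ccl21a (66.2 ± 3.09 FPKM) led before Cxcr4 (27.9 ± 0.915), Cxcl12 (23.5 ± 0.850), Ccr7 (9.14 ± 0.845) and Ltb (6.99 ± 1.69), with Cxcl13 (1.93 ± 0.126) and Cxcr5 (1.91 ± 0.324) next and Ccr6, Ccl19 and Ccl20 under 1 FPKM (SD, n = 3). Ccr7 and Ltb overlapped in range, as did Cxcl13 and Cxcr5 and the last 3 among neighbours. In IL-33 mice Cxcr4 (46.9 ± 0.922) and Ccl21a (45.9 ± 1.65) overlapped at the top, and Ltb (36.4 ± 1.96), Cxcl12 (33.0 ± 0.575), Ccr7 (32.8 ± 3.63) and Cxcl13 (30.9 ± 6.49) came next. Ltb lay above Cxcl12 in every mouse, but the ranges of Ccr7 and Cxcl13 reached into that of Ltb. In IL-33+LM8 mice Ccl21a (56.3 ± 9.23) led again, and Ccr7 (17.1 ± 0.924), Ltb (15.5 ± 2.62) and Cxcl13 (14.5 ± 8.99) stood together in the middle.

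Among the atypical receptors that scavenge chemokines, Ackr3, which takes up CXCL12, did not pass after IL-33 (14.1 ± 0.945 FPKM in PBS and 13.2 ± 0.0694 in IL-33 mice, log2 fold change -0.10, adjusted p = 0.271). Ackr1, a chemokine-binding protein of venules, was called higher (2.54, SE 0.73, adjusted p = 0.0208), and Ccrl2, which binds chemerin, was called lower (-1.25, SE 0.09, adjusted p = 2.86e-05). Ackr1 averaged 0.390 FPKM in PBS mice and passed the filter on low expression only through the challenged mice. Ackr4, which scavenges CCL19 and CCL21, was also called lower (-2.19, SE 0.28, adjusted p = 4.50e-04), from 1.03 to 0.224 FPKM on average. Of the 5 genes of this list, 1 was thus called higher and 2 lower after IL-33, against 10.8% and 6.24% of all genes tested.

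Oxysterols are a further cue that positions B cells and dendritic cells. Of 8 genes of the oxysterol and sphingosine 1-phosphate list 3 were called higher after IL-33, against 10.8% of all genes tested. Ch25h, the cholesterol hydroxylase that makes the precursor of the cue, went from 3.57 ± 0.0959 FPKM in PBS to 29.6 ± 1.90 in IL-33 and 34.7 ± 10.2 in IL-33+LM8 mice (SD, n = 3). The others were Cyp7b1 (2.39, SE 0.19), the next enzyme of the path, and Gpr183 (1.65, SE 0.18), the receptor of the cue. For Ch25h the log2 fold change was 3.05 (SE 0.09, adjusted p = 1.00e-06) after IL-33 and 0.23 (SE 0.20, adjusted p = 0.439) between IL-33+LM8 and IL-33 mice. S1pr1, the receptor that lets lymphocytes leave lymphoid tissue and that endothelium also carries, fell after IL-33 (-0.83, SE 0.06, adjusted p = 2.19e-05) and rose in IL-33+LM8 mice compared with IL-33 mice (0.70, SE 0.06, adjusted p = 2.28e-04).

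Of 10 genes of high endothelial venules and lymphoid stroma, 7 were expressed enough to be tested. After IL-33, 1 of them was called higher and 1, Chst4, lower, against 10.8% and 6.24% of all genes tested. Icam1 (97.9 ± 5.62 to 117 ± 5.05 FPKM), Vcam1 (11.1 ± 0.421 to 14.7 ± 0.232) and Pdpn (47.4 ± 0.721 to 58.0 ± 2.70), genes of adhesion molecules and of podoplanin, rose by less than 2-fold from PBS to IL-33 mice (SD, n = 3). Chst4, a sulfotransferase of high endothelial venules, had a log2 fold change of -1.92 (SE 0.42, adjusted p = 0.00656).

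Of the other homeostatic chemokine genes, 2 were called higher and 3 lower after IL-33 among 8 tested, against 10.8% and 6.24% of all genes tested. Cxcl16 (1.09, SE 0.06, adjusted p = 1.24e-05) and its receptor Cxcr6 (2.76, SE 0.15, adjusted p = 9.19e-06) were called higher together, and Cxcl14 (-1.40, adjusted p = 0.00350), Ccl27a (-1.32, adjusted p = 0.00201) and Cx3cl1 (-1.10, adjusted p = 2.19e-04) were called lower. Between IL-33+LM8 and IL-33 mice Cxcr6 (-1.12, SE 0.12, adjusted p = 7.34e-04) was called lower with LM8 and Cxcl14 (1.07, adjusted p = 0.0369) higher.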

How the data were processed

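Lung RNA of 9 mice was read in paired ends (Illumina NovaSeq). The authors deposited a table of raw read counts and FPKM per gene. Per the labels, Bowtie 0.12.2, HISAT2 2.0, StringTie 1.3.0 and mm10 were used, with no role given. Of 32643 gene IDs shared with GENCODE M21 (GRCm38), 578 had equal coordinates, so gene positions are those of the deposited table, whose build is unclear, and promoter positions are those of GRCm38.p6. The counter and its strand setting are not given in the sources used here.

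Groups were taken from the labels. The main test was the quasi-likelihood F test of edgeR (version 4.0.16 under R 4.3.3, TMM scaling) on the deposited counts, with only the 6 mice of a comparison in each fit. Genes entered with a mean FPKM over the 9 mice of 0.5 or more and a count above 0. The SE is the log2 fold change divided by the square root of F. Passing meant a Benjamini-Hochberg adjusted p below 0.05, and calling meant also a log2 fold change of 1 or more in size. Levels are deposited FPKM without a pseudocount. The fits were tested on simulated counts.

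The 10 genes and the gene lists were chosen with earlier results of these data known. The other genes named are the whole lymphotoxin list and, per list, the 3 with the highest mean FPKM and the called gene with the largest change after IL-33. Cd22, Ackr4, Ccl27a, Cyp7b1, Gpr183, Cd3e, Cd4, Prox1 and Mmrn1 were named after their values were seen, and some genes of the lists are not reported here. Alternatives were DESeq2 1.42.0, limma 3.58.1 on log2(FPKM + 1) or log2(FPKM + 0.1), other size factors, filters and thresholds, all 9 mice in the same fit, the replicate number as a block, omission of single mice and summed gene copies. The Ccl19 sum and the omission of the deepest libraries were added after seeing the data. Between libraries of the same group, counts varied 21.9 or more times as much as sampling alone gives, so none is a mere resampling of another. This cannot show that they came from separate animals, and each was taken as a replicate from its label. The labels name each sample as its own, and no source says more about separate animals for the IL-33+LM8 group.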

Additional observations from a re-analysis of the deposited data

How the results depend on the processing

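Of 477 recomputed values for single genes, 430 kept their direction and call, 27 were no longer called, 6 became called and 14, all of Ccl19 or Ccl20, changed sign. After IL-33, 6 genes were called whichever mouse was left out, with the replicate block and without the deepest libraries, 4 with limma on log2(FPKM + 1), and 9 if no minimum fold was set. Of the 3 genes called between IL-33+LM8 and IL-33 mice, 1 remained, Ltb, with limma on log2(FPKM + 1), 1 with no filter, 1 with a mean count of at least 10 and 1 with a minimum mean FPKM of 5, which leaves out Ccl19 and Ccr6 altogether, while 7 were called with no minimum fold. Leaving out a mouse gave 1 to 3 there, and 3 to 5 against 4 between IL-33+LM8 and PBS mice. For the other settings the cause was not tested.

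The sign of Ccl19 after IL-33 turned with the replicate block (-0.011), and its log2 fold change ranged from -0.39 to 0.43 when a mouse was left out. That of Ccl20 between IL-33+LM8 and IL-33 mice turned with median-of-ratios size factors (0.0018), DESeq2 (0.0020), no filter (0.012), a mean count of at least 10 (0.0091), the fit of all mice (0.012) and without the deepest libraries (0.29), and ranged from -0.61 to 0.35 when a mouse was left out. Neither passed the test under any of these settings. Counts of 20 to 165 reads lay behind Ccl19 and Ccl20 in each mouse. The replicate block gave 6, 2 and 4 called genes in IL-33 against PBS, LM8-treated against IL-33 and LM8-treated against PBS mice. Its numbers are shared by label alone, since same-numbered mice deviated with correlations from -0.42 to 0.67.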
